A study of Mus musculus with 6 samples.

Results

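Imprinted genes are transcribed mainly from the chromosome copy inherited from one parent. To see how such genes behaved under a glucocorticoid in the hypothalamus, 40 genes with established imprinting in mouse were followed in RNA-seq of the arcuate nucleus (ARC). They were chosen by name, for their imprinting, and 38 of the 40 were among the 21461 genes of the deposited count table. *Nespas* and *Phlda2* were the other two and were not analysed here. Because the table keeps only genes with at least 1 read in every library, membership also required reads in all 6 libraries. The choice of genes was made with earlier results of these data known, so the counts of changed members below are read against the share of all genes that changed.

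Male C57BL/6 mice at 10 weeks of age gave the ARC tissue, 24 h after intraperitoneal injection of vehicle, of dexamethasone (Dex, a synthetic glucocorticoid) at 10 mg/kg, or of Dex at 10 mg/kg with Zj7 at 50 mg/kg. Zj7 is a triterpenoid from jujube that the study tested as a selective modulator of the glucocorticoid receptor (GR). The dose of Zj7 comes from the design text of the series, since the sample labels of the combined treatment give the Dex dose alone. The labels of the vehicle samples carry the word fed, and those of the other samples do not. Each of the 3 groups had 2 libraries, and neither the labels nor the methods say whether the 2 came from separate mice. The p-values therefore rest on differences between libraries of a group that may be no more than technical.

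In most imprinted domains a stretch of DNA methylated in only one parent's germ line sets which copy is read. Paternally expressed genes such as *Igf2*, *Dlk1* and *Peg3* and maternally expressed ones such as *Igf2r*, *H19* and *Cdkn1c* are known for their part in growth, placental function and feeding, and several are strongly expressed in hypothalamic neurons. The Prader-Willi domain (*Snrpn*, *Ndn*, *Magel2*) is the best known of these in the control of appetite. The reads were not divided by parental copy, so the values here are total levels of each gene and not measures of imprinting itself. By their known imprinting in mouse, the measured members are listed as 25 paternally expressed genes and 10 maternally expressed genes. For the other 3 the expressed copy depends on the transcript or the tissue (*Gnas*, *Grb10* and *Ddc*). The classes do not show which copy was read in the ARC.

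The libraries held 50704789 to 61122938 counts. The level of a gene is its CPM, the count scaled to library size with TMM factors, and levels of different genes are compared only as FPKM, the deposited value that also divides by transcript length. Changes are log2 fold changes with their standard error (SE) from edgeR's quasi-likelihood test on all 6 libraries, and a gene is called changed at a Benjamini-Hochberg adjusted p under 0.05 over all 21461 genes. Both Dex libraries lay above both vehicle libraries for 5884 of these genes and below them for 6119. With Dex+Zj7 these counts were 6300 and 6166, so groups without overlap are common in these data. Markers of neurons had a summed level of 5070 to 5141 CPM with vehicle, 5268 to 5341 with Dex and 5221 to 5348 with Dex+Zj7, and 0 of the 8 called against vehicle in either comparison by edgeR's quasi-likelihood test (1 in each at an unadjusted p under 0.05). DESeq2 called 1 with Dex and 0 with Dex+Zj7, and edgeR's exact test 0 in both. Markers of hypothalamic regions were less even. With Dex 2 of 6 magnocellular and paraventricular, 1 of 4 ventromedial and 0 of 5 suprachiasmatic markers were called higher, against 5.03% of all genes. Of 8 arcuate markers 2 were called higher and 1 lower, and *Pomc* had 28.0 and 131 CPM in the 2 vehicle libraries. Whether the dissected regions differed between libraries was not tested. Of the 8 markers each, 6 of oligodendrocytes, 6 of microglia and 2 of astrocytes were called lower with Dex, against 6.45% of all genes. So were 7 of endothelium, 6 of mural cells, 3 of ependyma and tanycytes and 5 of the 10 of meningeal fibroblasts. With Dex+Zj7 6 of oligodendrocytes, 7 of microglia, 2 of astrocytes and 2 of endothelium were called lower than with vehicle, against 3.97% of all genes. So were 4 of mural cells, 4 of ependyma and tanycytes, 9 of meningeal fibroblasts and all 5 of red blood cells. The part of these cell types in the changes of the members was not tested. In dissected tissue, fewer cells of a type and less RNA per cell cannot be told apart. In the pituitary list 2 of 8 genes were in the table, and *Gh*, *Prl*, *Cga* and *Tshb* were not among them. Of 12 genes commonly induced by glucocorticoids, 9 were higher with Dex and 7 with Dex+Zj7.

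Promoter sequences were taken from RefSeq (GRCm38.p6) for 4 of the members called changed, since the study asks which sequences answer to GR. They show the 250 bases before the annotated start, 5′ to 3′ on the strand of the gene, and capitals mark the hexamer AGAACA, 1 arm of a glucocorticoid response element (GRE), where present. The *Hymai* sequence is chr10:13090595-13090844 on the plus strand and holds 19 CpG dinucleotides. *Nnat* is chr2:157559828-157560077 on the plus strand, *Kcnq1ot1* is chr7:143296548-143296797 on the minus strand, and *Ddc* has 2 annotated starts on the minus strand, the distal at chr11:11898145-11898394 and the proximal at chr11:11890409-11890658.
Hymai: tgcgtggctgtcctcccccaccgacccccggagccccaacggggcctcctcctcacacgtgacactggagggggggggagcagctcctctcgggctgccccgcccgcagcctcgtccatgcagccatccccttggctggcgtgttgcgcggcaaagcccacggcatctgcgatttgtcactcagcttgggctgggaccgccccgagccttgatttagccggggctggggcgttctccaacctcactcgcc
Nnat: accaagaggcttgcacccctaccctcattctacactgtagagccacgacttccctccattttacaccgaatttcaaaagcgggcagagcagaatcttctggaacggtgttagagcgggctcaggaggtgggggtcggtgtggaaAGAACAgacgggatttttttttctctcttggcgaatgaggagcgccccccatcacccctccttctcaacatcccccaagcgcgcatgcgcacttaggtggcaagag
Kcnq1ot1: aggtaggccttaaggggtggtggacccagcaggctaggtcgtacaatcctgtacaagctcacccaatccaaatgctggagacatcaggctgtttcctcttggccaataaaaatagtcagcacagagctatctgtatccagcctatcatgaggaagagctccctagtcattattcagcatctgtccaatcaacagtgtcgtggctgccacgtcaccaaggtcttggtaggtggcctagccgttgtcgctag
Ddc distal: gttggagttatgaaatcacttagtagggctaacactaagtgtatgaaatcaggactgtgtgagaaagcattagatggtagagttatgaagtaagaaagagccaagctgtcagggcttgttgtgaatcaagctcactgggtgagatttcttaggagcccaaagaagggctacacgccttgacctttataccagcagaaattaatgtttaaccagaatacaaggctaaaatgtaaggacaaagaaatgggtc
Ddc proximal: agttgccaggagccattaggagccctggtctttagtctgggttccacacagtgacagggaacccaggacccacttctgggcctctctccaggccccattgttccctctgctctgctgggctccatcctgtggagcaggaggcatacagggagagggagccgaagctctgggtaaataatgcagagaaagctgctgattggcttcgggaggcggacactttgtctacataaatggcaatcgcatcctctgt

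In windows from 250 bases before to 50 bases after each annotated start, 30 of the members matched 45 RefSeq promoters. The palindromic GRE, searched as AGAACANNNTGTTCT on both strands, was in 0 of these 45 windows and in 3 of all 32851 windows (0.00913%). The hexamer AGAACA, which is contained in the palindrome, was in 7 windows of 6 members (*Gnas*, *Igf2*, *Inpp5f*, *Mirg*, *Nnat* and *Rian*), against 19% of all windows. In *Nnat* it began 106 bases before the start. GGGGCCCC, the core bound by the zinc-finger protein PLAGL1, was in 3 member windows, those of *Peg3*, *Usp29* and *Rasgrf1*, against 1.08% of all. *Peg3* and *Usp29* start back to back and share the same match. Member windows had a median of 14 CpG dinucleotides, against 7 over all windows, and the promoters shown range from the CpG-rich *Hymai* to the distal *Ddc* start with 1 CpG in 250 bases. The study centres on a non-classical GRE of *Agrp*, which starts with GGAACA. It holds neither AGAACA nor the palindrome and was not searched for. A match or its absence describes these letters in these windows only.

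With vehicle, imprinted genes spanned a wide range of levels. The maternally expressed long non-coding RNA *Meg3* was highest, at 688 and 687 FPKM in the 2 libraries, and *Hymai* was lowest, at 0.0241 and 0.0303 FPKM. *Gnas*, which encodes the stimulatory G protein alpha subunit, followed *Meg3* with 479 and 504 FPKM. *Ndn*, which encodes the neuronal growth regulator necdin, had 407 and 405 FPKM, and *Nnat*, which encodes the small membrane protein neuronatin, had 390 and 388. *Ndn* and *Nnat* were separated by less than *Gnas* and *Ndn*, but the ranges of the 2 libraries did not overlap between any of these 4 neighbours. *Peg3*, a zinc-finger gene linked to growth and maternal behaviour, came next at 227 and 221 FPKM. Together the members took up 1.84% to 2.02% of all counts in each library, and *Meg3* alone 0.766% to 0.871%.

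**Figure D1:**
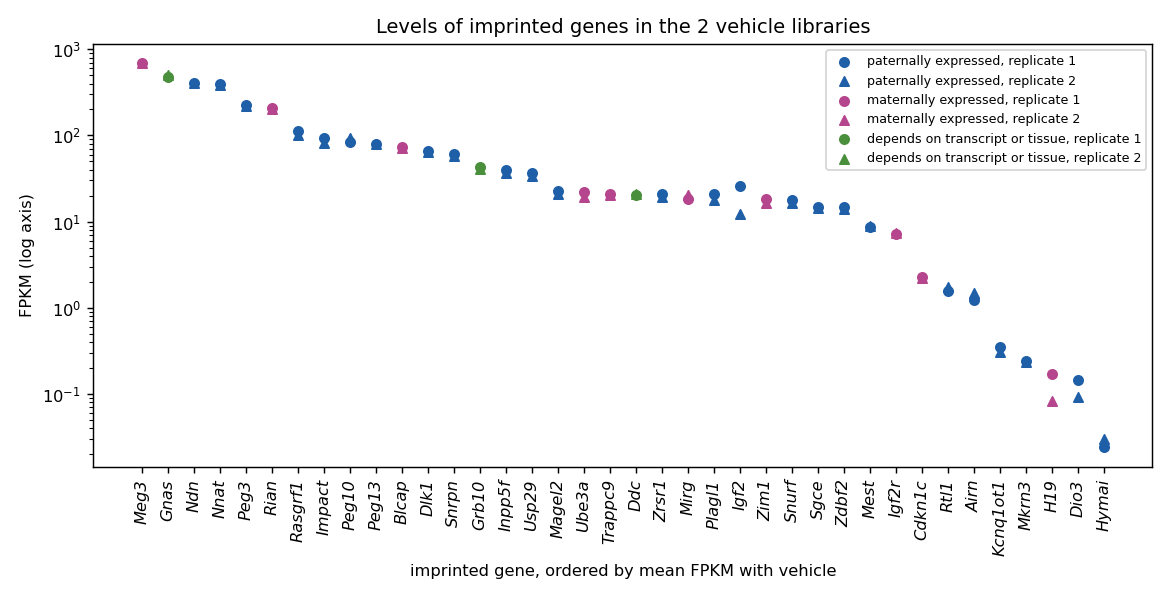
FPKM of the 38 measured imprinted genes in the 2 vehicle libraries (circles and triangles, log axis), ordered by their mean and coloured by the parental copy known to be expressed. *Meg3* lies at 688 and 687 FPKM and *Hymai* at 0.0241 and 0.0303.

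A log2 fold change under 0.2 in size was found 24 h after Dex in 63.2% of the members, against 51.7% of all genes. Of the 38 members, 3 were called higher (*Hymai*, *Ddc* and *Rtl1*) and 2 lower (*Peg10* and *Nnat*), while over all genes tested 5.03% were called higher and 6.45% lower. That is 13.2% of the members in either direction against 11.5% of all genes. Among genes with a mean of at least 1 CPM, it is 4 of 34 members against 13.8% of 15531 genes, so the share of changed members was near the background. At an unadjusted p under 0.05 there were 10 members (26.3%), against 27.8% of all genes. The median size of the log2 fold change was 0.11 over the members and 0.19 over all genes. Among genes with a mean of at least 1 CPM it was 0.09 over the members and 0.15 over all. The median change was 0.03 over the members and 0.00 over all genes. Split by parental copy, the third class gave 1 call (*Ddc*), and 4 of 25 measured paternally expressed genes were called, 2 in each direction, with a median log2 fold change of 0.08. Of the 10 measured maternally expressed genes 0 were called, with 2 at an unadjusted p under 0.05 (*Mirg* and *H19*, both with negative values) and a median of −0.02. DESeq2 called *Mirg* among them and edgeR's exact test called *Mirg* and *H19*.

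With Dex+Zj7, 1 member was higher than with vehicle (*Ddc*, against 3.4% of all genes called higher) and 4 were lower (*Peg10*, *Nnat*, *Igf2* and *Kcnq1ot1*, against 3.97% called lower). That is 13.2% of the members in either direction against 7.38% of all genes, and 5 of 34 members against 8.9% of genes with a mean of at least 1 CPM. At an unadjusted p under 0.05 there were 11 members (28.9%), against 25.1% of all genes. The median size of the log2 fold change was 0.12 over the members and 0.18 over all genes. Among genes with a mean of at least 1 CPM it was 0.11 over the members and 0.14 over all. All 4 lower genes were in the class listed as paternally expressed, which makes up 25 of the 38 measured members. Which copy of them was read in this tissue, that of *Igf2* included, was not measured. Of the 10 maternally expressed genes 0 were called, with 1 at an unadjusted p under 0.05. DESeq2 and the exact test each called 0 of these 10. Against 7.38% of all genes called, 10 genes are too few for 0 calls to set this class apart. The difference between the classes was not tested in either comparison with vehicle. Between Dex+Zj7 and Dex, 0 members were called higher, with 0.00466% of all genes called higher, and 0 were called lower, with 0% of all genes. At an unadjusted p under 0.05 there were 6 members (15.8%), 2 higher and 4 lower with Dex+Zj7, against 5.24% of all genes. DESeq2 called 0 of them and edgeR's exact test called 1, *Hymai*. Since both comparisons with vehicle use the same vehicle libraries, the values of each are given side by side and their likeness was not tested.

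**Figure D2:**
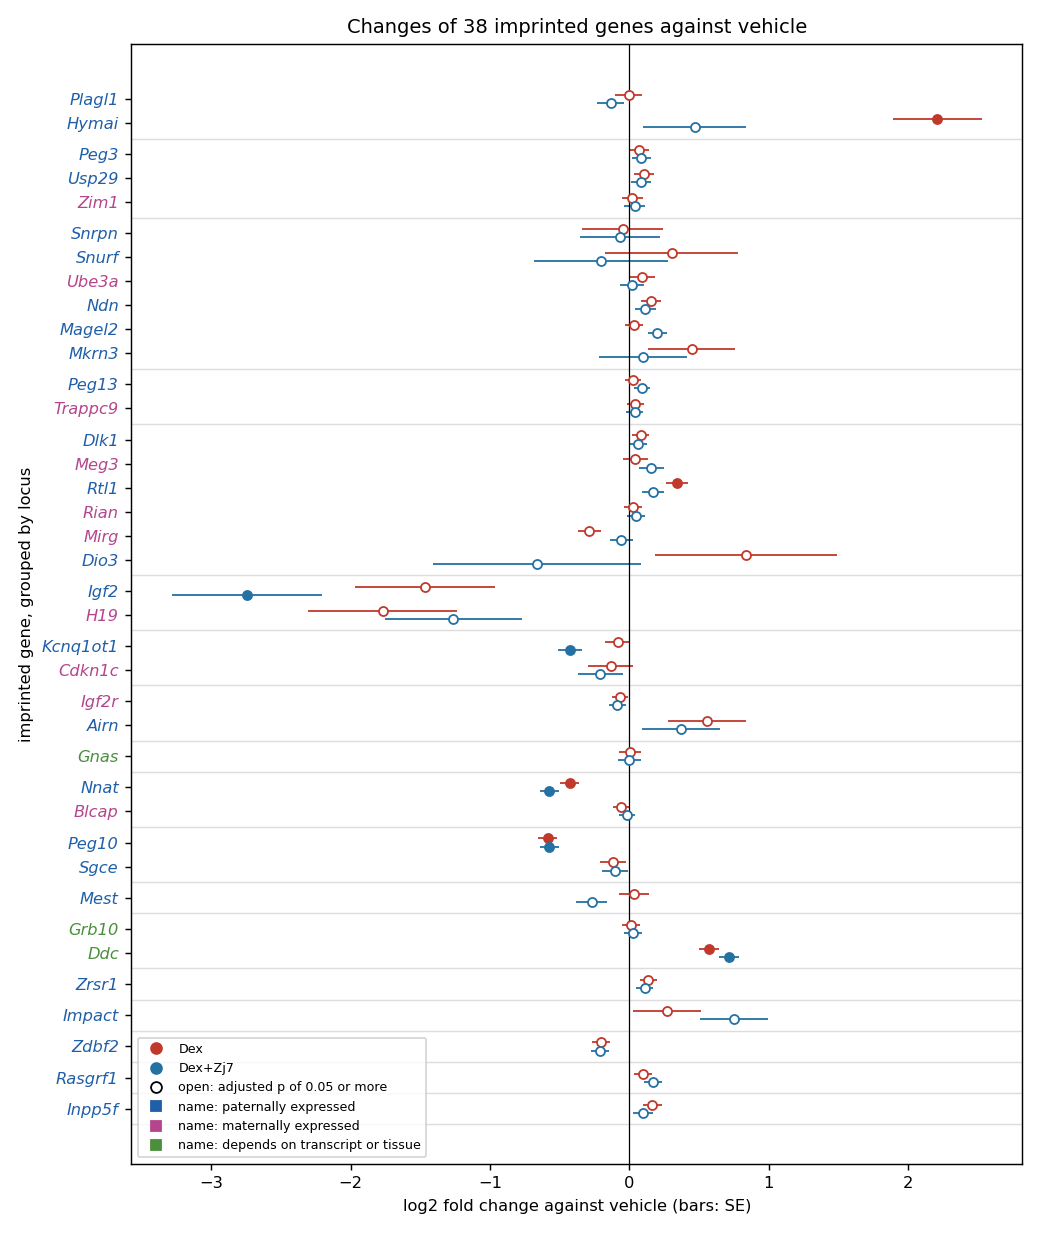
log2 fold change of each measured imprinted gene against vehicle for Dex (red) and Dex+Zj7 (blue), grouped by locus. Bars are SE and filled points have an adjusted p under 0.05. *Hymai* (2.21 with Dex) and *Igf2* (−2.74 with Dex+Zj7) lie farthest from 0 among the filled points.

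The *Plagl1* locus gave the largest rise. *Plagl1* encodes a zinc-finger transcription factor that restrains growth, and *Hymai* is a non-coding RNA that starts within its first bases, on the same strand. *Plagl1* spans chr10:13090832-13131694 and *Hymai* chr10:13090845-13095900. *Hymai* had 8 and 9 reads with vehicle (0.138 and 0.166 CPM), 35 and 40 reads with Dex (0.691 and 0.728 CPM) and 11 and 14 reads with Dex+Zj7 (0.191 and 0.230 CPM). Both Dex libraries stood above the other 4, and the Dex+Zj7 libraries stood slightly above those of vehicle. With Dex it was 4.62-fold higher than with vehicle (log2 fold change 2.21, SE 0.32, adjusted p = 0.00575), and the call held without any one of the 6 libraries, with adjusted p-values between 0.0105 and 0.0464. With Dex+Zj7 the log2 fold change against vehicle was 0.47 (SE 0.37, adjusted p = 0.540).

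Against Dex alone, *Hymai* was lower with Dex+Zj7 by a log2 fold change of −1.74 (95% interval −2.43 to −1.05). Adjusted over all genes this missed the threshold in the quasi-likelihood test (adjusted p = 0.322) and passed it in edgeR's exact test (adjusted p = 0.00226). Over all alternatives but that one, the member was not called in this comparison. *Plagl1* itself was measured at 114 and 99.0 CPM with vehicle, 116 and 96.1 with Dex, and 97.2 and 96.8 with Dex+Zj7. The groups overlapped, the log2 fold change was −0.005 with Dex (adjusted p = 0.982), and its 95% interval ran from −0.22 to 0.21. The ratio of *Hymai* to *Plagl1* counts was 0.00122 and 0.00168 with vehicle, 0.00596 and 0.00758 with Dex, and 0.00197 and 0.00237 with Dex+Zj7. The 2 genes share their promoter window almost entirely, and because they overlap on one strand, reads in the shared bases could be counted to either. The genes on each side, *Sf3b5* and *Ltv1*, had adjusted p-values of 0.741 and 0.262 with Dex.

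*Peg10* and *Nnat* fell with both treatments. *Peg10* is a paternally expressed gene derived from a retrotransposon and is required in the placenta. It had 606 and 664 CPM with vehicle, 424 and 423 with Dex, and 412 and 441 with Dex+Zj7, so both vehicle libraries lay above the other 4. The log2 fold change was −0.59 with Dex (SE 0.07, adjusted p = 0.00257) and −0.57 with Dex+Zj7 (SE 0.07, adjusted p = 0.00404). Between Dex+Zj7 and Dex it was 0.01, with a 95% interval from −0.14 to 0.17. Both calls against vehicle held without any one library.

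*Sgce*, which encodes epsilon-sarcoglycan, lies at chr6:4674350-4747204, 102 bases from *Peg10* (chr6:4747306-4760517) and on the other strand, and it is also expressed from the paternal copy. It had 27.4 and 27.0 CPM with vehicle, 27.3 and 22.8 with Dex, and 25.5 and 25.1 with Dex+Zj7. Its log2 fold change was −0.12 with Dex (adjusted p = 0.450) and −0.10 with Dex+Zj7 (adjusted p = 0.535). The count ratio of *Peg10* to *Sgce* was 22.1 and 24.6 with vehicle, 15.5 and 18.5 with Dex, and 16.1 and 17.6 with Dex+Zj7, with no overlap between vehicle and either treatment.

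*Nnat* is enriched in neurons and is known in the hypothalamus for a part in energy balance. It had 517 and 516 CPM with vehicle, 366 and 401 with Dex, and 336 and 358 with Dex+Zj7. The vehicle libraries lay above all others, and both Dex libraries above both Dex+Zj7 libraries. The log2 fold change was −0.43 with Dex (SE 0.07, adjusted p = 0.00756) and −0.57 with Dex+Zj7 (SE 0.07, adjusted p = 0.00367). With Dex+Zj7 against Dex it was −0.14 (95% interval −0.30 to 0.01). Leaving out either vehicle library raised the adjusted p with Dex past the threshold (0.0555 without replicate 1 and 0.0670 without replicate 2), at a log2 fold change of −0.43 in both cases.

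*Nnat*, at chr2:157560078-157562525, lies within *Blcap* (chr2:157556362-157566361) on the opposite strand. *Blcap*, expressed mainly from the maternal copy in brain, had 166 and 159 CPM with vehicle, 151 and 162 with Dex, and 160 and 161 with Dex+Zj7. The groups overlapped, and its log2 fold change was −0.06 with Dex and −0.02 with Dex+Zj7. The count ratio of *Nnat* to *Blcap* was 3.11 and 3.24 with vehicle, 2.42 and 2.48 with Dex, and 2.097 and 2.22 with Dex+Zj7. The library kit keeps strand, but the sources used here do not say whether the counting used it, and without it reads from the pair could not be told apart.

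*Ddc* rose with both treatments. It encodes aromatic L-amino acid decarboxylase, the enzyme that makes dopamine and serotonin from their precursors, and its imprinting in mouse is known from the heart, where the paternal copy is read. *Ddc* (chr11:11814101-11898144) had 43.1 and 44.1 CPM with vehicle, 63.0 and 66.6 with Dex, and 75.5 and 67.7 with Dex+Zj7. Each treated library lay above both vehicle libraries. The rise was 1.49-fold with Dex (log2 fold change 0.57, SE 0.07, adjusted p = 0.00322) and 1.64-fold with Dex+Zj7 (0.72, SE 0.07, adjusted p = 0.00178), and both calls held without any one library. Against Dex the value with Dex+Zj7 was 0.14 higher on the log2 scale (95% interval −0.02 to 0.30, adjusted p = 0.976).

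*Grb10*, the neighbour of *Ddc*, encodes an adaptor that dampens insulin and IGF signalling and is read from the paternal copy in neurons and the maternal copy elsewhere. It had 236 and 225 CPM with vehicle, 228 and 236 with Dex, and 244 and 224 with Dex+Zj7, with log2 fold changes of 0.01 and 0.02 against vehicle. Of the 5 genes of dopamine synthesis and transport, *Ddc* was the 1 called higher with Dex. *Gch1*, which supplies the cofactor of tyrosine hydroxylase, was called lower (log2 fold change −0.66, SE 0.17, adjusted p = 0.0450). *Th*, tyrosine hydroxylase itself, was at −0.31 with Dex (adjusted p = 0.194) and −0.27 with Dex+Zj7 (adjusted p = 0.277). The largest change of this list was that of *Slc6a3*, at −1.19 with Dex (adjusted p = 0.136) and −1.27 with Dex+Zj7 (adjusted p = 0.132). Its vehicle libraries were uneven, at 5.97 and 21.2 CPM.

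**Figure D3:**
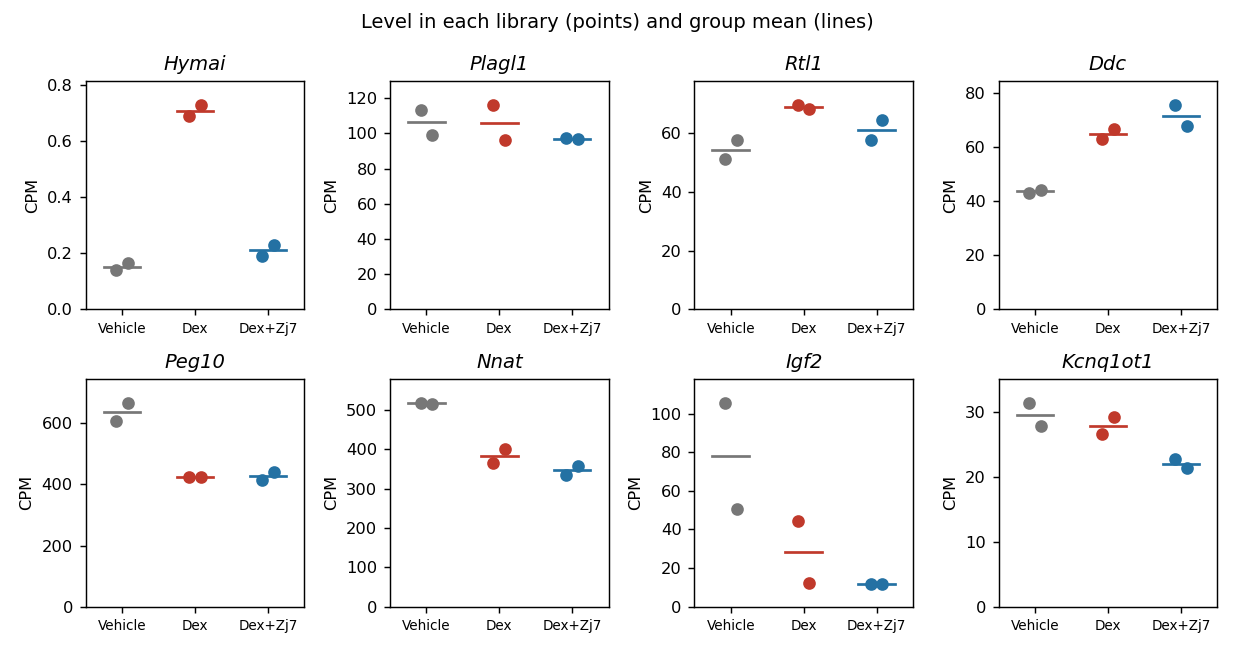
CPM in each library (points) and group mean (lines) of the 7 imprinted genes called changed in any comparison, with *Plagl1* beside *Hymai*. The Dex libraries of *Hymai* (0.691 and 0.728) lie above the other 4, while those of *Plagl1* (116 and 96.1) overlap with vehicle.

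*Rtl1* rose with Dex, by a small amount. It is another gene derived from a retrotransposon, read from the paternal copy, and lies opposite the maternally expressed non-coding RNAs of the *Dlk1*-*Meg3* domain (chr12:109564900-109604418). It had 51.1 and 57.8 CPM with vehicle, 69.6 and 68.3 with Dex, and 57.9 and 64.7 with Dex+Zj7. The Dex libraries lay above the rest, and the lowest Dex+Zj7 library was level with the higher vehicle one. The log2 fold change was 0.34 with Dex (SE 0.08, adjusted p = 0.0305) and 0.17 with Dex+Zj7 (SE 0.08, adjusted p = 0.228). The call was lost without either vehicle library (adjusted p = 0.186 and 0.0629) and without either Dex library (0.0830 and 0.0541).

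The other genes of this domain were not called. *Meg3*, which overlaps *Rtl1* on the other strand, had 7726 and 7754 CPM with vehicle, 7670 and 8275 with Dex, and 8825 and 8437 with Dex+Zj7, with log2 fold changes of 0.04 and 0.16. Both Dex+Zj7 libraries lay above the other 4, a difference that did not pass the test (adjusted p = 0.327). *Rian* was at 780 to 834 CPM in all 6 libraries, and *Dlk1*, which encodes a membrane protein of the Notch ligand family, at 299 to 333. *Mirg*, a non-coding RNA that hosts microRNAs, had a log2 fold change of −0.29 with Dex (adjusted p = 0.0608) and −0.06 with Dex+Zj7. *Dio3*, the deiodinase that inactivates thyroid hormone, had 17 and 10 reads with vehicle, 31 and 14 with Dex, and 2 and 16 with Dex+Zj7, so the 2 libraries of the last group differed by 7.54-fold in CPM and no difference was detectable at this depth.

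*Igf2*, a fetal growth factor whose transcripts in the adult brain are known mainly from the choroid plexus and the meninges, was lowest with Dex+Zj7. The vehicle libraries had 105 and 50.4 CPM, the Dex libraries 44.4 and 12.2, and the Dex+Zj7 libraries 11.6 and 11.7. Both vehicle libraries lay above all treated ones, although within vehicle and within Dex the 2 libraries differed, by 3.64-fold with Dex. With Dex+Zj7 the log2 fold change was −2.74 (SE 0.54, adjusted p = 0.0232). That call did not survive leaving out vehicle replicate 1 (−2.12, adjusted p = 0.0872) or Dex+Zj7 replicate 1 or 2 (adjusted p = 0.135 and 0.116). With Dex it was −1.47 (SE 0.51, adjusted p = 0.0986), and it was called without Dex replicate 1 (−2.67, adjusted p = 0.0132).

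*H19*, the maternally expressed RNA that shares enhancers with *Igf2*, had 25 and 12 reads with vehicle, 6 and 4 with Dex, and 11 and 5 with Dex+Zj7. Its log2 fold change was −1.77 with Dex (SE 0.53, adjusted p = 0.0680) and −1.26 with Dex+Zj7 (SE 0.49, adjusted p = 0.152). The 10 markers of meningeal fibroblasts summed to 116 and 66.3 CPM with vehicle, 47.1 and 26.3 with Dex, and 27.2 and 25.5 with Dex+Zj7, with 5 called lower with Dex and 9 with Dex+Zj7. Each had at least 8 reads in each library. The 4 vehicle and Dex libraries fell in the same order for this sum and for *Igf2*, from vehicle replicate 1 down to Dex replicate 2. Over all 6 libraries the orders differed. For the sum, Dex+Zj7 replicate 1 (27.2 CPM) lay above Dex replicate 2 (26.3), and for *Igf2* it lay below (11.6 against 12.2). The 8 choroid plexus markers summed to 84.2 and 74.3 CPM with vehicle, 98.7 and 85.4 with Dex, and 90.5 and 79.6 with Dex+Zj7, a sum made up mostly of *Prlr*, *Clic6* and *Kl*. The low ones, each under 1 CPM in all libraries, went both ways. *Ttr* (log2 fold change 1.40) and *Kcne2* (1.74) were called higher with Dex, *Folr1* (−1.27) was called lower with Dex+Zj7, and *Aqp1* was at −1.46 with Dex (adjusted p = 0.0609). The part of the meningeal and choroid plexus markers in the result for *Igf2* was not tested. The receptor *Igf2r*, which takes up and degrades IGF2, stayed between 65.1 and 70.6 CPM in all 6 libraries.

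**Figure D4:**
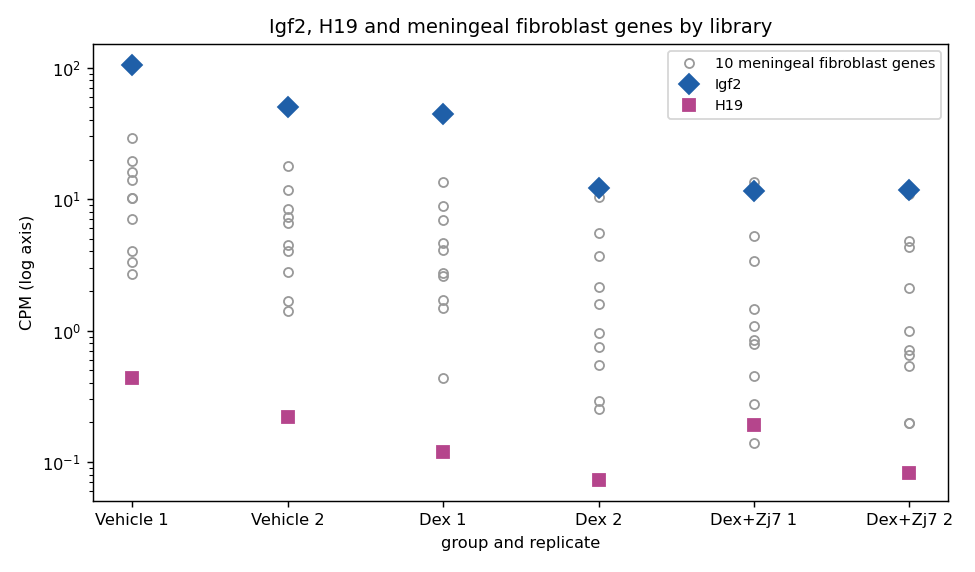
CPM (log axis) of *Igf2* (diamonds), *H19* (squares) and 10 meningeal fibroblast markers (circles) in each of the 6 libraries. *Igf2* runs from 105 CPM in vehicle replicate 1 to 11.6 and 11.7 with Dex+Zj7, while the marker sum runs from 116 to 27.2 and 25.5.

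*Kcnq1ot1* fell with Dex+Zj7. This long non-coding RNA is read from the paternal copy, antisense to the potassium channel gene *Kcnq1* (*Kcnq1ot1* spans chr7:143213111-143296547), and is known to silence neighbouring genes on that copy. It had 31.3 and 27.8 CPM with vehicle, 26.6 and 29.1 with Dex, and 22.7 and 21.3 with Dex+Zj7. The Dex+Zj7 libraries lay below the other 4, while vehicle and Dex overlapped. The log2 fold change was −0.43 with Dex+Zj7 (SE 0.09, adjusted p = 0.0273), −0.08 with Dex (adjusted p = 0.590), and −0.34 with Dex+Zj7 against Dex (95% interval −0.55 to −0.14, adjusted p = 0.690). The call was lost without either vehicle library (adjusted p = 0.162 and 0.0609) and without either Dex+Zj7 library (0.105 and 0.131). *Cdkn1c*, a cell cycle inhibitor of the same domain that is read from the maternal copy, was at 3.90 to 4.80 CPM in all 6 libraries and was not called.

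In the Prader-Willi and Angelman domain on chromosome 7, 0 of 6 members were called against vehicle in either treatment. *Ndn* had 722 and 723 CPM with vehicle, 761 and 846 with Dex, and 758 and 807 with Dex+Zj7. All 4 treated libraries were above vehicle, by log2 fold changes of 0.15 (adjusted p = 0.209) and 0.11 (adjusted p = 0.371). *Magel2*, a gene of the MAGE family that is disrupted in Schaaf-Yang syndrome, had 105 to 115 CPM with vehicle, 112 to 113 with Dex and 121 to 131 with Dex+Zj7, and its log2 fold change with Dex+Zj7 was 0.20 (95% interval 0.05 to 0.35, adjusted p = 0.102). *Ube3a*, the ubiquitin ligase that neurons read from the maternal copy, had log2 fold changes of 0.09 and 0.02. *Mkrn3*, which encodes an inhibitor of puberty onset, was below 1 CPM in all 6 libraries.

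*Snrpn* and *Snurf* differed more between libraries of a group than between groups. They share a transcript unit that encodes a splicing protein and a short upstream protein, so reads can be assigned to either. *Snrpn* had 138 and 136 CPM with vehicle, 85.8 and 179 with Dex, and 155 and 107 with Dex+Zj7. *Snurf* had 39.0 and 36.2 CPM with vehicle, 20.4 and 72.3 with Dex, and 42.3 and 23.0 with Dex+Zj7. The sum of both was 177 and 172 CPM with vehicle, 106 and 251 with Dex, and 198 and 130 with Dex+Zj7, so adding the pair did not level the libraries. Without Dex replicate 1 the log2 fold change of *Snurf* with Dex was 0.94 (adjusted p = 0.0766), and without Dex replicate 2 it was −0.88 (adjusted p = 0.0978).

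*Impact*, a paternally expressed gene on chromosome 18 that encodes a regulator of the translation kinase GCN2, was uneven too. It had 763 and 689 CPM with vehicle, 897 and 850 with Dex, and 1616 and 823 with Dex+Zj7, with 1 library of the last group standing apart. The deposited FPKM values showed the same library higher, at 324 against 108 in its partner. The log2 fold change with Dex+Zj7 was 0.75 (SE 0.24, adjusted p = 0.102). It was 0.18 without that library (adjusted p = 0.386) and 1.15 without its partner (adjusted p = 0.00396). Among the 15531 genes with a mean of at least 1 CPM, 133 differed by over 1.9-fold between the Dex libraries and 70 between the Dex+Zj7 libraries, so such gaps were rare. *Snrpn*, *Snurf* and *Impact* were picked after their uneven libraries were seen, so their place among such genes is no result. Between the Dex+Zj7 libraries *Snurf* (1.84-fold) and *Snrpn* (1.46-fold) were under 1.9-fold.

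**Figure D5:**
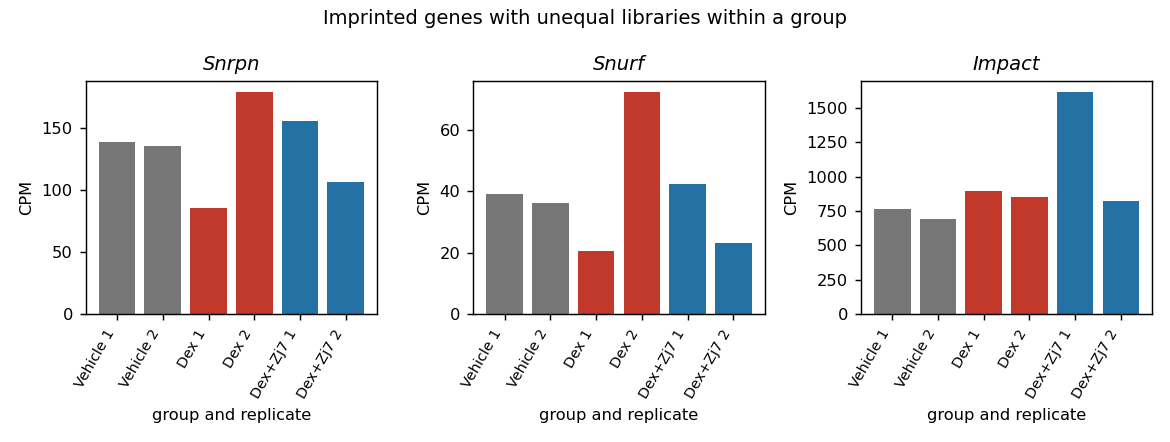
CPM of *Snrpn*, *Snurf* and *Impact* in each of the 6 libraries, with axes from 0. The Dex libraries lie at 85.8 and 179 CPM for *Snrpn* and at 20.4 and 72.3 for *Snurf*, and the Dex+Zj7 libraries at 1616 and 823 for *Impact*.

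The remaining members were not called against vehicle by the quasi-likelihood test. In the *Peg3* domain, *Peg3* had 2032 and 1951 CPM with vehicle, 2103 and 2074 with Dex, and 2157 and 2069 with Dex+Zj7, with log2 fold changes of 0.07 and 0.09. *Usp29* was within 265 to 305 CPM and the maternally expressed *Zim1* within 113 to 126. *Peg13*, a brain-expressed non-coding RNA within an intron of *Trappc9*, had log2 fold changes of 0.02 and 0.09, and *Trappc9*, which serves in vesicle transport, had 0.04 in both. *Gnas* had 1750 and 1840 CPM with vehicle, 1707 and 1892 with Dex, and 1751 and 1840 with Dex+Zj7, and its log2 fold change was 0.00 in both comparisons.

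*Zdbf2* lay just outside the threshold of the quasi-likelihood test in both comparisons with vehicle. It is a zinc-finger gene known to affect feeding and growth of newborn mice, and had 191 and 187 CPM with vehicle, 171 and 157 with Dex, and 169 and 158 with Dex+Zj7. The vehicle libraries lay above the other 4, with log2 fold changes of −0.21 (adjusted p = 0.0740) and −0.21 (adjusted p = 0.0825). DESeq2 and edgeR's exact test called it lower in both comparisons. *Rasgrf1*, a Ras exchange factor of neurons, had 0.09 and 0.17, *Inpp5f*, a phosphoinositide phosphatase, 0.16 and 0.10, and *Zrsr1*, a splicing factor, 0.14 and 0.11. *Mest*, an alpha/beta hydrolase of growing fat tissue, had log2 fold changes of 0.03 and −0.27. *Airn*, the non-coding RNA that silences *Igf2r* on the paternal copy outside neurons, was at 0.969 to 1.68 CPM with log2 fold changes of 0.55 (adjusted p = 0.238) and 0.37 (adjusted p = 0.461).

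A second list held 50 further genes imprinted or with a parental bias in mouse, of which 43 were measured. With Dex 2 were called higher and 6 lower, and with Dex+Zj7 2 higher and 6 lower, which is 18.6% in each against 11.5% and 7.38% of all genes. Between Dex+Zj7 and Dex, 0 were called, 3 at an unadjusted p under 0.05. *Gatm*, which encodes the first enzyme of creatine synthesis, fell from 90.3 and 97.7 CPM with vehicle to 50.0 and 45.8 with Dex and 48.0 and 59.5 with Dex+Zj7 (log2 fold change −0.97, adjusted p = 0.00151, and −0.81, adjusted p = 0.00473). *Gab1*, a docking protein of growth factor receptors, fell by 0.61 and 0.39 on the log2 scale. *Pon2*, a paraoxonase of the *Peg10* cluster, rose by 0.54 and 0.41, and *Bcl2l1*, which encodes the survival protein BCL-XL, by 0.44 and 0.32.

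Some of the second list changed in 1 comparison. *Ano1*, a chloride channel, was called with Dex (−1.50, adjusted p = 0.00457) and had −0.71 with Dex+Zj7 (adjusted p = 0.0607). *Kcnq1*, at 0.502 and 0.277 CPM with vehicle and 0.0987 and 0.0728 with Dex, was called lower with Dex (−2.17, adjusted p = 0.0210) and overlaps *Kcnq1ot1*. *Asb4*, expressed in arcuate neurons and part of a ubiquitin ligase, was called with Dex+Zj7 (−0.46, adjusted p = 0.0244) and had −0.33 with Dex (adjusted p = 0.0524). *Dcn*, which encodes decorin and is also 1 of the 10 meningeal markers above, fell in both, by 1.13 and 1.64 on the log2 scale. The difference between comparisons was not tested for these genes.

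Of 19 genes whose proteins set or maintain imprints, 17 were measured. *Tet2*, a dioxygenase that starts the removal of DNA methylation, was called higher with Dex (0.47, SE 0.09, adjusted p = 0.0137) and with Dex+Zj7 (0.36, SE 0.09, adjusted p = 0.0438). It had 52.2 and 45.3 CPM with vehicle, 71.4 and 63.4 with Dex, and 64.4 and 60.9 with Dex+Zj7, without overlap between vehicle and either treatment. Of the other 16 genes the quasi-likelihood test called 0 in either comparison, with 5 at an unadjusted p under 0.05 with Dex and 1 with Dex+Zj7. With *Tet2*, the called share was 5.88% in each comparison, against 11.5% of all genes with Dex and 7.38% with Dex+Zj7. The shares at an unadjusted p under 0.05 were 35.3% and 11.8%, against 27.8% and 25.1% of all genes. DESeq2 and the exact test each called 2 of the 17 in each comparison with vehicle.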

How the data were processed

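Poly(A) RNA of the ARC was sequenced from a stranded kit on an Illumina HiSeq instrument in 6 libraries, 2 each of vehicle, Dex and Dex+Zj7. The authors removed low-quality reads, adapters, contaminant DNA and PCR duplicates, used HISAT2, Bowtie2 and StringTie with mm10, and left out genes at 0 in any sample. The count columns that the authors deposited hold raw whole numbers per gene, with 1 as the smallest value, so a gene silent in 1 library cannot be seen. The FPKM values the authors deposited were used here for levels within vehicle and for 1 check of *Impact*. The deposited TPM values and the log2 values of the authors' normalization were not used, and neither were the authors' own fold changes and p-values, which the table also holds.

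Counts were scaled by TMM and tested in R 4.3.3 by quasi-likelihood (glmQLFTest of edgeR 4.0.16), in 1 fit of all 6 libraries without covariates and without a further filter. An SE was taken from each log2 fold change and the root of its F statistic, and intervals of 95% use the degrees of freedom of the fit. The libraries held 50704789 to 61122938 counts. The 2 libraries of each group differed by more than counting noise, with a mean chi-square per degree of freedom of 8.71 to 19.9 over genes, so they were not taken as copies of 1 library. This does not show that they came from separate mice.

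The genes, the lists and the motifs were chosen with earlier results of these data known. Values in every library were given by rule for members called in any comparison, for *Plagl1* and *Hymai*, and for the 5 members with the highest vehicle FPKM. *Snrpn*, *Snurf*, *Impact*, *Dio3*, *H19*, *Zdbf2*, single choroid plexus markers and the neighbours of called members were added after their values were seen. Of the other lists at most 6 called genes per comparison, those with the smallest p, were named, with *Dcn* with Dex and the genes of the dopamine list added. Groups and replicate numbers come from the labels. The 13 alternatives were RLE factors, total counts, DESeq2 1.42.0, edgeR's exact test, edgeR's filter on low counts, the replicate number as a block, a fit of the 2 groups compared, and leaving out each of the 6 libraries. Gene positions are those of RefSeq on GRCm38.p6 (mm10), found by gene ID for 21400 of 21461 genes.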

Additional observations from a re-analysis of the deposited data

How the results depend on the processing

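The rises of *Hymai* (log2 fold change 2.08 to 2.34) and *Ddc* (0.53 to 0.61) with Dex, the falls of *Peg10* with both treatments, and the change of *Ddc* and the fall of *Nnat* with Dex+Zj7 kept their call when each library was left out in turn. Leaving out libraries moved the genes called with Dex from 2464 to between 538 and 2397, and with Dex+Zj7 against vehicle from 1583 to between 311 and 2330. For Dex the lower counts were 538 and 804 without vehicle replicate 2 and 1 and 1514 without Dex replicate 1. For Dex+Zj7 against vehicle they were 311 to 484 without any one library of those groups, and 2329 and 2330 without a Dex library. Against Dex, Dex+Zj7 gave between 0 and 3 genes. Members called higher ranged from 2 to 3 and lower from 1 to 4 with Dex, and from 1 to 2 and from 2 to 5 with Dex+Zj7. *Zdbf2* joined the lower ones without Dex replicate 1 in both comparisons and without Dex replicate 2 with Dex+Zj7. With Dex+Zj7 it was also lower by DESeq2, the exact test and the fit of the 2 groups, each with 5 lower members. In the second list 5 to 7 were called with Dex and 1 to 9 with Dex+Zj7, with 1 and 2 without Dex+Zj7 replicate 1 and 2, and 2 and 3 without vehicle replicate 1 and 2. Against vehicle, edgeR's exact test called 3726 genes with Dex and 3023 with Dex+Zj7. Between Dex+Zj7 and Dex, DESeq2 called 66 and the exact test 97, while the fit of the 2 groups gave 0. Lower members with Dex numbered 4 with total counts and with DESeq2 (*Mirg* and *Zdbf2* added), 4 with the filter on low counts (*Mirg* and *Igf2* added), and 6 with the exact test (*Mirg*, *Zdbf2*, *Igf2* and *H19* added). Higher members with Dex+Zj7 numbered 2 with the exact test and with the filter, with *Impact* added, and the exact test called 1 lower member, *Hymai*, against Dex.

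Values near 0 changed sign as single libraries were left out. *Plagl1* ran from −0.15 to 0.12 with Dex and from −0.258 to 0.014 for Dex+Zj7 against Dex, *Kcnq1ot1* from −0.165 to 0.006 with Dex, and *Peg10* from −0.047 to 0.06 for Dex+Zj7 against Dex. These counts cover the members called in any comparison and *Plagl1*. Of their other values under the alternatives, 289 kept their direction and side of the threshold, 13 lost the call and 5 gained it. Other named genes, such as *Zdbf2*, *Mirg*, *H19* and *Impact*, are not in these counts. No scaling moved the median of all genes by over 0.1 on the log2 scale. The cause of these shifts was not tested.

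Same-numbered libraries deviated together with a correlation of 0.36 between vehicle and Dex, 0.06 between vehicle and Dex+Zj7 and 0.04 between Dex and Dex+Zj7 over 15531 genes, so the numbers were not taken as pairs. With the replicate block the genes called were 3666 for Dex against vehicle, 2612 for Dex+Zj7 against vehicle and 0 for Dex+Zj7 against Dex. The block gave 4 higher members (*Inpp5f* added) and 6 lower members with Dex, with *Igf2* at a log2 fold change of −1.56, and 2 higher members (*Impact* added) and 5 lower members (*Zdbf2* added) with Dex+Zj7.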
